A study of Mus musculus with 249 samples.

Results

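The 7 genes described here mark the precursors of oligodendrocytes in the mouse: Pdgfra, Cspg4, Gpr17, Olig1, Olig2, Sox10 and Matn4. They were chosen by name, as the probes whose only annotated gene symbol is one of them. Each was carried by 1 probe of the 13645 with a single symbol, so the members were 7 of 11508 genes measured. They were measured in whole brain from an F2 intercross of the strains C57BL/J6 and C3H/HeJ, as the labels spell them, both on ApoE null backgrounds, so every animal lacked ApoE. Females and males of the 330 mice named in the labels were fed a high-fat Western diet between 8 and 24 weeks, and sex is not given for each animal. There is 1 array per animal, with the animal's RNA in Cy3 and a common pool in Cy5 made from equal RNA portions of all samples. All animals belong to 1 group with no control, so the measurement is the variation between 248 brains, and animal 144 of the 249 arrays was set aside by the rule for these genes.

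Oligodendrocyte precursors are dividing glial cells, spread through grey and white matter, that give rise to the myelinating oligodendrocytes and persist in the adult brain. They are recognised by the PDGF receptor Pdgfra, which receives the mitogen PDGF-A, and by the surface proteoglycan NG2, the product of Cspg4. The transcription factors Olig1, Olig2 and Sox10 run through the whole lineage, from precursor to myelinating cell. Gpr17 is a receptor of precursors that have begun to differentiate, and Matn4 is a matrilin of the extracellular matrix. Cspg4 is also expressed by the mural cells of vessels (pericytes and smooth muscle), and Pdgfra by fibroblasts of the meninges and of the vessel sheath, so these cells are taken up apart.

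The sequences just upstream of 4 members are shown because these genes were compared for shared variation. Their upstream letters were searched for E boxes and SOX-type letters, motifs of the factor classes among the members, and for the GC box. RefSeq windows (GRCm38.p6) were found for 4 of the 7 members, and each holds the 250 bases before an annotated start, written 5′ to 3′ on the gene's strand. They lie at chr5:75152001-75152250 (plus strand, Pdgfra, at a start within the gene's span), chr9:56864854-56865103 (plus strand, Cspg4), chr16:91225300-91225549 (plus strand, Olig2) and chr2:164405161-164405410 (minus strand, Matn4). Capitals mark every match, on either strand, to the E box CANNTG bound by factors of the Olig class, to the SOX-type letters ACAAAG or ACAATG, and to the GC box GGGCGG.
Pdgfra: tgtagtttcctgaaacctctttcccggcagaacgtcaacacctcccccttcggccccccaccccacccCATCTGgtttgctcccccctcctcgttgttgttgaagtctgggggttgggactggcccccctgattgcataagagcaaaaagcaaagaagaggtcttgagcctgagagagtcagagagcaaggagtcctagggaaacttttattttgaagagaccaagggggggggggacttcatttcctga
Cspg4: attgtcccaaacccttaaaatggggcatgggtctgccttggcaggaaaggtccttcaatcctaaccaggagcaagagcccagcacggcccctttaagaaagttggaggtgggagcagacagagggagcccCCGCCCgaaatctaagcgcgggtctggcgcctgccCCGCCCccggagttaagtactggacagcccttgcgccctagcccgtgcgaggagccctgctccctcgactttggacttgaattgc
Olig2: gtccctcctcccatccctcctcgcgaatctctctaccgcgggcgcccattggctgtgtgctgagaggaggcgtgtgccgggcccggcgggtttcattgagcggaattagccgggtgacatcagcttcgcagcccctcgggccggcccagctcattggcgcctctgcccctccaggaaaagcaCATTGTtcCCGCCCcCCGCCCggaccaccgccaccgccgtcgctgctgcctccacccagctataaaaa
Matn4: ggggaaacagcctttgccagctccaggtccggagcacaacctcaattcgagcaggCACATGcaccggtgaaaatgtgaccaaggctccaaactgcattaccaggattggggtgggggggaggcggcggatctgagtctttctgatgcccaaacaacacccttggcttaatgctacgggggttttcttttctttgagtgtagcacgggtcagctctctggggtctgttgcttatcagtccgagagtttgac
The windows of Pdgfra and Matn4 each held 1 E box, that of Cspg4 held 2 GC boxes, and that of Olig2 held 1 ACAATG match and 2 GC boxes. None of the 4 windows held ACAAAG, and no match overlapped another. Of 32851 windows of the same length, 66.2% held CANNTG, 16.5% ACAAAG, 10.7% ACAATG and 32.7% GGGCGG, so each of these motifs is common and a match is a description of letters.

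The deposited value is the log10 ratio of the animal to the pool, where 0 is the level of the pool and 0.301 is a doubling. It says how an animal stands against the pool for 1 gene, and gives neither the level of a gene nor an order of levels between genes, so the labelled tissue could not be checked by marker levels. The labels do not state the base and direction. They were read from the values: for the Y-linked Eif2s3y and Kdm5d the values above 0 had medians of 0.331 and 0.354, near the log10 of 2. Between arrays r was 0.308 in the median of 30628 pairs and reached down to -0.354, with 6 pairs under -0.3, and the labels give 1 dye order for all arrays. Array medians lay between -0.00627 and 0.0250. None of the 1736 member values was missing or at a limit of the scale. In whole tissue, fewer cells of a type and less RNA per cell cannot be told apart.

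The surface markers Pdgfra and Cspg4 varied to a middling degree among all genes. Pdgfra ran from -0.328 in animal 178 through a median of -0.0147 to 0.114 in animal 87, with a mean of -0.0177 ± 0.0503 (SD, n = 248). Its low end stood apart: animal 178 lay well below the next lowest animal, at -0.186, while the 5th to 95th percentiles spanned only 1.39-fold. Cspg4 ran from -0.147 in animal 186 through -0.00257 to 0.138 in animal 18 with no animal apart, a mean of 0.000100 ± 0.0513 and a span of 1.50-fold. The SDs of these surface markers stood at percentiles 43.0 and 44.7 among 11508 genes, whose median SD was 0.0546.

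Gpr17 varied less, from -0.0943 through 0.00792 to 0.197 in animal 151, with a mean of 0.0109 ± 0.0332 and a span of 1.25-fold. Its 5 highest animals (151, 200, 213, 241 and 336) formed a separate high group when the values were fitted as a mixture of 2 normal distributions. This probe needs care: its annotated gene ID is not that of mouse Gpr17, and was not found in the mouse gene table, so its values are those of a probe that carries the name.

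The basic helix-loop-helix factors were the most even members. Olig1 ran from -0.192 in animal 213 through 0.00611 to 0.0941 in animal 164, with a mean of 0.00550 ± 0.0296. Olig2 ran from -0.128 in animal 186 through -0.00790 to 0.0863 in animal 196, with a mean of -0.00677 ± 0.0297. Their SDs stood at percentiles 7.04 and 7.19, and their 5th to 95th percentiles spanned 1.23- and 1.24-fold, so most brains lay close to the pool. Sox10, the HMG-box factor that acts on myelin genes, varied more, from -0.266 in animal 213 through 0.00493 to 0.153 in animal 150, with a mean of 0.00340 ± 0.0549, percentile 50.7 and a span of 1.46-fold.

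The matrix gene Matn4 varied most of the 7. It ran from -0.223 in animal 350 through -0.0361 to 0.376 in animal 178, with a mean of -0.0318 ± 0.0766, an SD at percentile 78.4 and a span of 1.72-fold. Animals 24, 178 and 336 formed its separate high group.

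**Figure D1:**
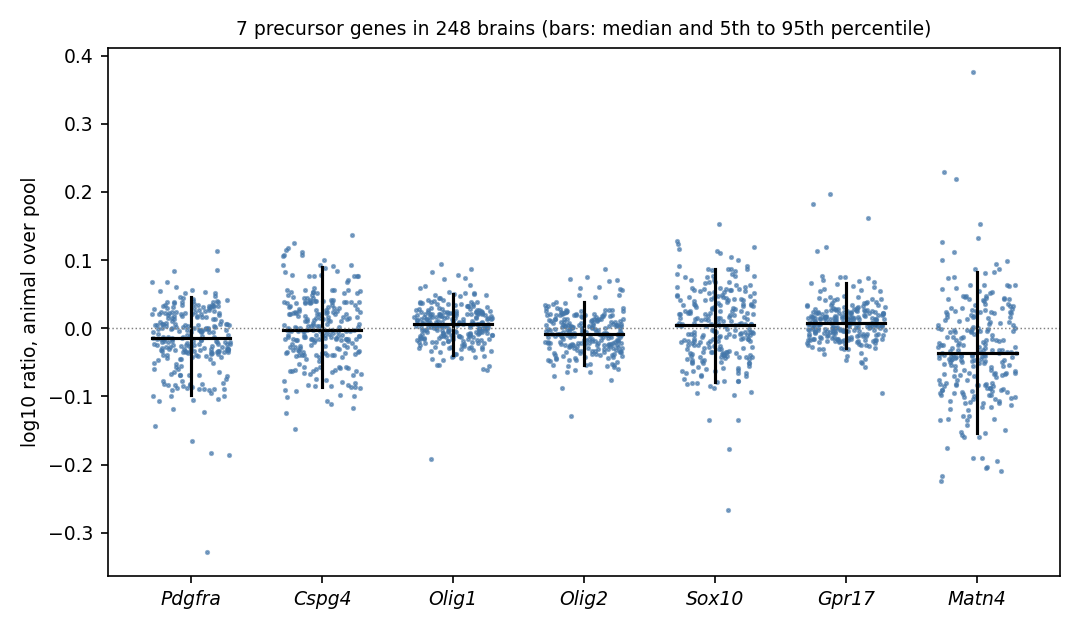
Log10 ratio of animal over pool (vertical axis) for the 7 genes (horizontal axis), 1 point per animal in 248 animals, with a horizontal bar at the median and a vertical bar from the 5th to the 95th percentile. Olig1 and Olig2 are the narrowest and Matn4 the widest, with its highest animal at 0.376 and the lowest animal of Pdgfra at -0.328.

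Few animals were extreme in more than 1 member. Animal 178, the array with the largest SD over probes, held the lowest Pdgfra and the highest Matn4 value together with the 4th highest Olig1 value, 0.0775. Animal 213, the array with the second largest SD, was lowest in Olig1 and Sox10 and second highest in Gpr17, at 0.182. Animal 186, whose array SD ranked 39th from the top, was lowest in both Cspg4 and Olig2 and second lowest in Olig1, at -0.0615. Animal 144, set aside throughout, had 0.812 for Pdgfra, 0.736 for Matn4 and -0.309 for Sox10, all outside the range of the others. In all, 10 animals lay in a separate high or low group of Pdgfra, Gpr17, Olig1 or Matn4, and for some pairs the correlation is also given without them.

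Whether the precursor genes rose and fell together was asked for each of the 21 pairs. Of these, 11 passed limma's test in both directions (each member in turn as the covariate, adjusted p under 0.05 over all genes), 10 of them positive and 1 negative. That is 52.4% of pairs, against 53.2% of all pairings of a member with any gene, so the count is no more than the background. The median r of the pairs was 0.134 against 0.00583 over all pairings, and 47.6% of pairs passed in the positive direction against 28.2%.

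Pdgfra and Cspg4, the markers by which precursors are usually stained, made the strongest pair. Their r was 0.481 (95% interval 0.380 to 0.572, adjusted p = 3.6e-14), with a Spearman rho of 0.428 and a permutation p of 1e-05 for each, the smallest the permutations can give. It was 0.447 in the 124 animals with lower numbers, 0.510 in the 124 with higher numbers, 0.470 without the 2 animals farthest from the median of Pdgfra, and 0.498 in the 238 animals outside the separate groups. The pair was thus positive in each of these subsets. Among all genes Cspg4 stood at percentile 95.9 for Pdgfra, and Pdgfra at percentile 98.3 for Cspg4.

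Olig1 and Olig2, neighbouring genes on chromosome 16, came next with r = 0.462 (0.358 to 0.555, adjusted p = 1.05e-12, rho 0.476), 0.539 and 0.379 in the lower and higher numbers. Olig1 also rose with Sox10 (r = 0.408, 0.299 to 0.507, adjusted p = 4.43e-10, rho 0.289), and without the 2 animals farthest from the median of Olig1 this r was 0.308. Olig2 and Sox10 had r = 0.134 with an interval of 0.00959 to 0.254 and did not pass (adjusted p = 0.0635). So of the 3 lineage factors, Olig1 was the one that passed with both others when no covariate was used. With 5 components Sox10 was at 0.120 with Olig1 and 0.146 with Olig2, and neither passed. The difference between these pairs was not tested.

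The surface markers also went with the factors. Pdgfra correlated with Olig2 at 0.357 and with Olig1 at 0.297, and Cspg4 with Sox10 at 0.339, with Olig2 at 0.301 and with Olig1 at 0.278, all past the threshold. These values were higher in the 238 animals outside the separate groups, at 0.425, 0.442, 0.436, 0.403 and 0.428. Pdgfra and Sox10 had r = 0.122 (-0.00234 to 0.243) and did not pass (adjusted p = 0.0897). This value moved with a few animals: it was 0.231 in the 238 animals and -0.166 with animal 144 included. The pair passed in the positive direction in 4 of 18 other settings, at 0.176 on ranks, 0.215 without the 12 arrays of largest SD, 0.221 with 5 components and 0.175 without animal 178.

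Gpr17 went with Pdgfra at 0.324 and with Olig2 at 0.276, and these values were 0.278 and 0.243 in the 238 animals outside the separate groups. It was the one member with a negative pair that passed, with Sox10 at -0.227 (-0.342 to -0.105, adjusted p = 0.00103). Without animal 213 that r was -0.138 and did not pass (adjusted p = 0.0599), and in the 238 animals it was -0.159. Matn4 passed with no member: its 6 values of r lay between -0.120 and 0.125. Single animals set the sign of some of these. With animal 144 included r with Pdgfra was 0.318, with Cspg4 0.0704 and with Sox10 -0.116, against -0.120, -0.0539 and 0.0827, and without animal 178 r with Pdgfra was 0.0150.

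Much of the variation of single genes was shared across the whole array. The first 5 principal components over all genes other than the members held 39.1% of the variance, and the first 20 held 67.6%. As covariates, 20 components accounted for 82.7% of the variance of Pdgfra, 75.4% of Cspg4, 73.5% of Olig1 and 59.9% of Sox10. Matn4 was the least tied to the first 5, at 12.7%, against 38.1% to 55.6% for the other members.

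With 5 components as covariates 9 of 21 pairs passed, all positive (42.9%, background 35.1%). Olig1 and Olig2 then had r = 0.483, and Pdgfra and Cspg4 0.394, while Gpr17 and Sox10 turned to 0.142 and did not pass (adjusted p = 0.0907). Olig1 and Sox10 fell to 0.120 (adjusted p = 0.165). With 20 components 3 pairs passed (14.3%, background 7.91%): Olig1 with Olig2 at 0.212 (adjusted p = 0.0387), Cspg4 with Olig2 at 0.204 (adjusted p = 0.0344) and Pdgfra with Matn4 at 0.226 (adjusted p = 0.0176). Pdgfra and Cspg4 then had r = 0.109 and did not pass (adjusted p = 0.343).

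**Figure D2:**
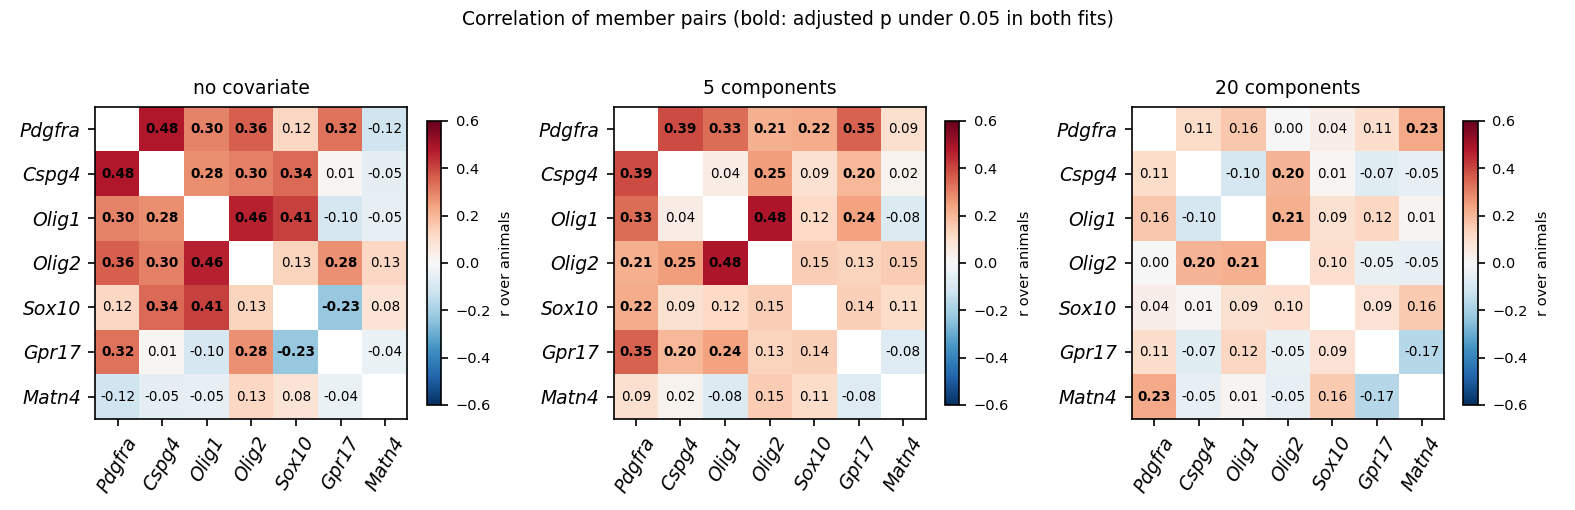
Correlation r over 248 animals (colour and number in each cell) between the 7 genes, with no covariate, with 5 and with 20 principal components of all other genes as covariates, and bold for pairs that passed in both directions. The pairs Pdgfra with Cspg4 (0.48) and Olig1 with Olig2 (0.46) are strongest on the left, and 3 pairs remain bold on the right.

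Mural cells were looked at first, because they carry Cspg4. Of 15 measured mural genes, 13 rose with Cspg4 and none fell (median r 0.303, background 25.0% positive and 20.4% negative over all genes). The list was led by Pdgfrb, the PDGF receptor of pericytes, at 0.626, and by the smooth muscle genes Acta2 (0.543), Tagln (0.497), Myh11 (0.493) and Cnn1 (0.491). Ndufa4l2 was lowest, at -0.0314, and did not pass.

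Pdgfra went with fewer of them: 6 of 15 rose and 2 fell (median 0.0893, background 29.5% in each direction). Its highest were the pericyte transporter genes Atp13a5 (0.623) and Abcc9 (0.448), its lowest Ndufa4l2 at -0.473, and Pdgfrb was at 0.0785. The difference between the correlations with Cspg4 and with Pdgfra was tested for each gene. For 11 of the 15 mural genes the correlation with Cspg4 was higher and for 3 it was lower (median difference 0.267, against 0.0240 over all genes, background 34.2% higher and 28.4% lower). For Pdgfrb the values were 0.626 and 0.0785.

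Against the mean of the standardised lineage factors (Olig1, Olig2 and Sox10), the correlation with Cspg4 was higher for 9 of the 15 mural genes and lower for 1 (background 19.2% higher, 21.7% lower). The correlation with Pdgfra was higher for 4 and lower for 8 (background 28.8% higher, 36.3% lower). The factors had mural values of their own, for 10 of the 15 mural genes rose with Sox10 and none fell (background 30.6% and 25.3%), led by Pdgfrb at 0.549 and Vtn at 0.510. Pdgfrb was at 0.179 with Olig1 and 0.0927 with Olig2.

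With 20 components, 6 mural genes still rose with Cspg4 and none fell (background 4.45% and 3.78%): Pdgfrb (0.350), Myh11 (0.331), Notch3 (0.245), Abcc9 (0.213), Tagln (0.200) and Acta2 (0.196). The genes then nearest to Cspg4 over the whole array, named with their values in view, were Lamb2, a laminin of basement membranes, at 0.434, Dysf at 0.418 and Plec at 0.402. Vwf of the endothelium (0.361) and Pdgfrb (0.350) were among its 10 nearest. In the 124 animals with lower numbers 4 mural genes passed, and in the 124 with higher numbers limma called 0, with 9 of 15 at an unadjusted p under 0.05 (8.81% of all genes).

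Fibroblasts of the meninges and vessels carry Pdgfra. Of 20 measured fibroblast genes, 7 rose with Pdgfra and 4 fell (median 0.0155), 12 rose with Cspg4 and 2 fell (median 0.162), and 14 rose with Sox10 and 3 fell (median 0.243). The background was 25.0% up and 20.4% down for Cspg4, and 30.6% and 25.3% for Sox10. For Pdgfra it was 29.5% in each direction, so the 7 rising genes were near the background. The collagen gene Col1a2 was at 0.378 with Pdgfra and was the fibroblast gene highest with Cspg4, while its partner Col1a1 was at -0.302 and 0.0759. Cyp1b1 was the fibroblast gene highest with Pdgfra, at 0.414. For 10 of the 20 the correlation with Pdgfra was lower than that with the lineage factors and for 3 it was higher (background 36.3% and 28.8%).

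With 20 components the picture for Pdgfra was narrower. Then 4 fibroblast genes rose with it and none fell (background 3.67% and 2.67%): Slc6a20a (0.316), Cyp1b1 (0.281), Dcn (0.263) and Igf2 (0.224). With Cspg4 1 fibroblast gene rose, Pcolce at 0.232. The 4 genes were not stable: 2 passed without the 12 arrays of largest SD, 1 passed on ranks, and limma called 1 in the higher-numbered animals and 0 in the lower-numbered ones, where 2 of 20 had an unadjusted p under 0.05 (6.49% of all genes).

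Endothelial genes were set beside these lists. Of 17 measured, 9 rose and 2 fell with Cspg4 (background 25.0% and 20.4%), led by the VEGF receptor genes Kdr (0.648) and Flt1 (0.494), and 8 rose and 2 fell with Pdgfra (background 29.5% in each direction), led by the transporter gene Slco1c1 (0.615) and the angiopoietin receptor gene Tek (0.474). Tie1 was lowest with Pdgfra, at -0.389. With 20 components Vwf, Flt1 (0.277), Kdr (0.271) and Tek (0.224) still rose with Cspg4. As a mean of standardised values, the endothelial list correlated with Cspg4 at 0.530 and with Pdgfra at 0.426, and the mural list with Cspg4 at 0.635 and with Pdgfra at 0.203.

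Markers of neurons and astrocytes moved with some members too. The mean of 9 neuronal genes correlated with Pdgfra at 0.484 and with Olig2 at 0.411, and that of 11 astrocyte genes with Olig1 at 0.412, with Pdgfra at 0.396 and with Olig2 at 0.380. For Pdgfra both values were above that of the mean of the other precursor genes, 0.370. This order was not kept by Spearman rho, which was 0.444 for the other precursor genes, 0.401 for the neuronal and 0.246 for the astrocyte genes. Of the neuronal genes 5 rose and 2 fell with Pdgfra, led by Gap43, a growth cone protein gene, at 0.621. Of the astrocyte genes 6 rose and 1 fell with it, led by Aldh1l1 at 0.562, with S100b lowest at -0.491. The background for Pdgfra was 29.5% in each direction. The part of these cells in the values of the members was not tested.

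**Figure D3:**
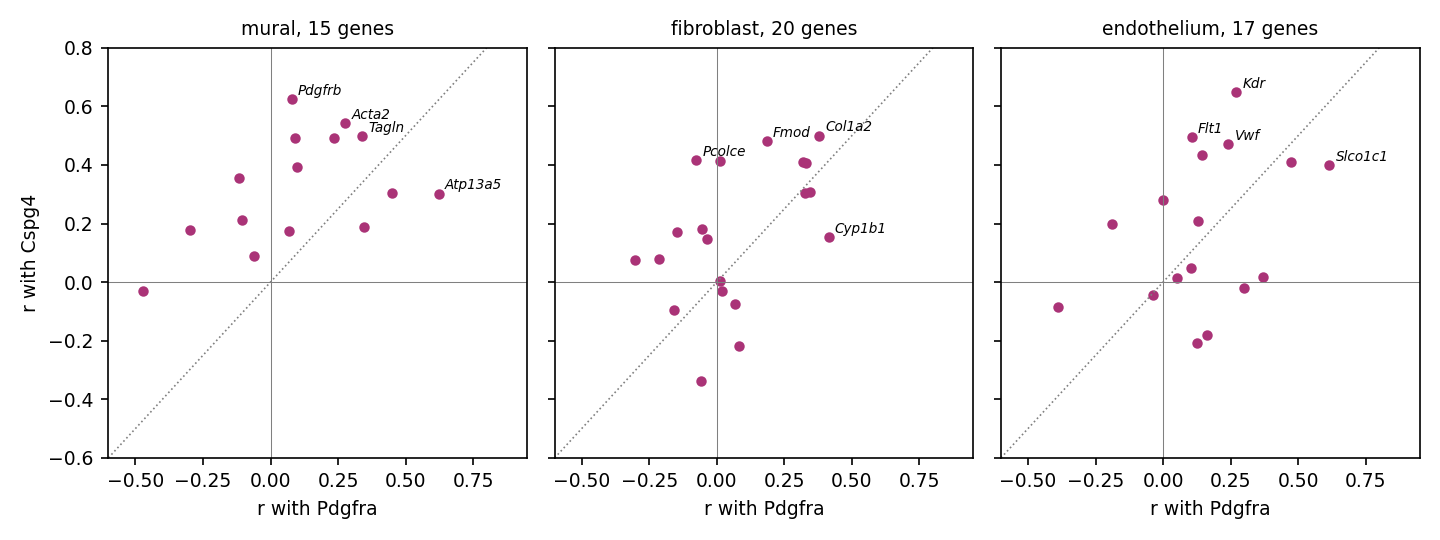
Correlation over 248 animals of each mural, fibroblast and endothelial gene with Pdgfra (horizontal axis) and with Cspg4 (vertical axis), with no covariate; the dotted line marks equal values. Most mural points lie above the line, with Pdgfrb at 0.626 with Cspg4 and 0.0785 with Pdgfra, while Atp13a5 and Slco1c1 lie below it.

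The means of the 3 vascular lists were then added as covariates. Again 11 of 21 pairs passed (9 positive, 2 negative, background 51.7%). Pdgfra with Cspg4 stood at 0.453 (adjusted p = 6.3e-12) against 0.481 without them, and Olig1 with Olig2 at 0.439 against 0.462. Cspg4 with Sox10 was the positive pair that no longer passed, at 0.0551 (adjusted p = 0.503) against 0.339. Pdgfra with Matn4 passed in the negative direction, at -0.183 (adjusted p = 0.0145), but without animal 178 it was at -0.0574 and did not pass (adjusted p = 0.543). The differences between these fits were not tested.

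The wider precursor programme was described by 12 further genes measured of 20 listed. With Cspg4 8 rose and none fell (median 0.187, background 25.0% and 20.4%). With Olig1 7 rose and 2 fell (median 0.203, background 29.0% and 27.0%), and with Pdgfra 5 rose and 2 fell (median 0.132, background 29.5% in each direction). With Sox10 5 rose and 1 fell (background 30.6% and 25.3%), and with Olig2 4 rose and 2 fell (background 30.2% and 26.2%). Gpr17 was evenly divided, 4 up and 4 down (background 33.4% and 32.6%), and Matn4 had 2 and 2 (background 19.4% and 14.6%).

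Different precursor genes led for different members. Ptprz1, a receptor phosphatase of precursors and other glia, was at 0.618 with Pdgfra, 0.409 with Gpr17 and -0.147 with Sox10. Bcan, the matrix proteoglycan brevican, was at 0.648 with Sox10, 0.509 with Cspg4 and -0.408 with Gpr17. Xylt1, an enzyme that starts proteoglycan sugar chains, was at 0.633 with Olig2 and 0.515 with Pdgfra. Nkx2-2, a factor of lineage progression, was at 0.317 with Sox10 and -0.436 with Pdgfra. With 20 components 3 of the 12 rose with Pdgfra (background 3.67%): Ptprz1 at 0.385, which was then the gene nearest to Pdgfra on the array, the proteoglycan gene Vcan at 0.341 and Chst11 at 0.202. The genes that had led with Cspg4, Bcan and Ncan, were then at -0.0786 and -0.0407 with it and did not pass. Sox6 then fell with Cspg4, at -0.191 (limma, adjusted p = 0.0464).

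The ligands and receptors of the PDGF family form the pathway of Pdgfra, and 4 of 6 were measured. Pdgfa, the ligand of precursors, was at 0.0532 with Pdgfra and did not pass (adjusted p = 0.485), but rose with Cspg4 at 0.410 and with Sox10 at 0.359. Pdgfc was at 0.459 with Pdgfra and 0.231 with 20 components (adjusted p = 0.0151). Pdgfb, the ligand that recruits pericytes, was at 0.326 with Pdgfra, 0.642 with Olig1 and 0.703 with Olig2, and of all 11501 genes that are no members it was the nearest to the mean of the lineage factors, at 0.755. With 20 components Pdgfb and Olig2 still had r = 0.405. Pdgfb was then at 0.199 with Olig1 (adjusted p = 0.0615), -0.0856 with Sox10 and -0.00862 with Pdgfra, and passed with none of these. Its SD was small, 0.0233, against a lower quartile of 0.0404 over all genes. Without covariates all 4 measured genes of the family rose with Cspg4.

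Other regulators of the lineage, 6 measured of 15 listed, gave no common direction. With Pdgfra 2 rose and 3 fell, with Olig1 3 rose and 1 fell, and with Olig2 none rose and 3 fell. The background was 29.5% in each direction for Pdgfra, 29.0% up and 27.0% down for Olig1, and 30.2% and 26.2% for Olig2. The 2 rising with Pdgfra were thus near the background. Id4, an inhibitor of helix-loop-helix factors, was at 0.523 with Pdgfra, Hdac2 at -0.320 with Sox10, and Tcf7l2 at -0.352 with Pdgfra. Tcf7l2, a factor of the step to new oligodendrocytes, was at 0.0612 with Olig2 without covariates and at 0.381 with 20 components (adjusted p = 2.84e-07).

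Genes of cell division, which dividing precursors share with all dividing cells, fell with Olig1, Cspg4 and Sox10 where they passed. Of 6 measured, none rose and 4 fell with Olig1, none rose and 3 fell with each of Cspg4 and Sox10, and 1 rose and 2 fell with Pdgfra. The background of falling genes was 27.0% for Olig1, 20.4% for Cspg4 and 25.3% for Sox10. For Pdgfra the background was 29.5% in each direction, so its fall in 2 of 6 was near it. With Gpr17 3 rose and none fell (background 33.4% and 32.6%), led by Cdk1 at 0.510. Without the 5 high animals of Gpr17 2 rose, Cdk1 at 0.486 and Ccnb2 at 0.189, and Mki67 fell at -0.228 (adjusted p = 0.000899), where it had been at -0.0339 and had not passed. The proliferation marker Mki67 was at -0.231 with Olig1, -0.214 with Olig2 and -0.0275 with Pdgfra. With Olig2 Cdk1 went the other way and rose at 0.337, Birc5 fell at -0.261, and the remaining genes did not pass. With 20 components 1 of these genes passed with any member, Ccnb2 with Olig2 at -0.218.

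Of the later stages of the lineage, the myelin list had more genes rising with each factor than with Pdgfra, Cspg4 or Gpr17. Of 9 genes of new oligodendrocytes 5 rose and none fell with Sox10 (median 0.214), among them Sirt2 (0.356), Opalin (0.318) and Enpp6 (0.286), while none rose and 3 fell with Pdgfra (median -0.0121). As a mean of standardised values this list was at 0.421 with Sox10, 0.277 with Matn4 and 0.214 with Olig2. It was at 0.129 with Olig1 and did not pass (limma, adjusted p = 0.0697). With Pdgfra it was at -0.248, with a Spearman rho of -0.0821. Of 10 myelin genes 7 rose and 1 fell with Sox10 (median 0.232) and with Olig1 (median 0.183), and 5 rose and none fell with Olig2. With Pdgfra 3 rose and 3 fell, with Cspg4 2 and 2, and with Gpr17 1 rose and 5 fell. The background over all genes was 30.6% up and 25.3% down for Sox10, 29.0% and 27.0% for Olig1, and 30.2% and 26.2% for Olig2. For Pdgfra it was 29.5% each way, for Cspg4 25.0% and 20.4%, and for Gpr17 33.4% and 32.6%. The myelin counts of Pdgfra and Cspg4 were thus near the background.

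Single myelin genes differed widely in this. Gjb1, a gap junction gene of myelinating cells, was at 0.458 with Olig1, 0.447 with Sox10 and -0.219 with Pdgfra. Mobp was at 0.561 with Pdgfra, 0.506 with Olig1 and 0.0574 with Sox10. Mag was at 0.348 with Sox10 and -0.393 with Pdgfra, and Aspa at -0.361 with Sox10. In the test of the difference, the correlation with Pdgfra was lower than that with the lineage factors for 7 of the 10 and higher for 2 (background 36.3% and 28.8%). That with Cspg4 was lower for 5 and higher for none (background 21.7% and 19.2%). Gjb1 had the largest such difference of all genes in the negative direction, -0.219 against 0.528.

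With 20 components the myelin genes and Sox10 stood closer together. Then 8 of the 10 rose with Sox10 and none fell (median 0.295, background 4.23% and 3.56%): Mal at 0.401, Aspa at 0.350, Gjb1 at 0.324, Mag at 0.323, Cnp at 0.309, Cldn11 at 0.281, Mobp at 0.264 and Trf at 0.252. Mog and Hapln2, at 0.0651 and 0.0403, did not pass. Aspa had the opposite sign without the components. With each other member at most 2 of the 10 rose: Matn4 had 2 up and 1 down, Cspg4, Olig1 and Olig2 1 up each, Pdgfra 1 down and Gpr17 none. The background with 20 components was 5.85% up and 6.60% down for Matn4, 2.49% and 1.83% for Olig1, 7.40% and 5.79% for Olig2, and 2.24% and 0.817% for Gpr17. The count was smaller in parts of the data, with 3 of 10 on ranks (background 1.90%), 1 in the lower-numbered animals (0.365%) and 2 in the higher-numbered ones (0.756%), where 6, 4 and 7 had an unadjusted p under 0.05. The correlations of Sox10 were not tested against those of the other members here.

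**Figure D4:**
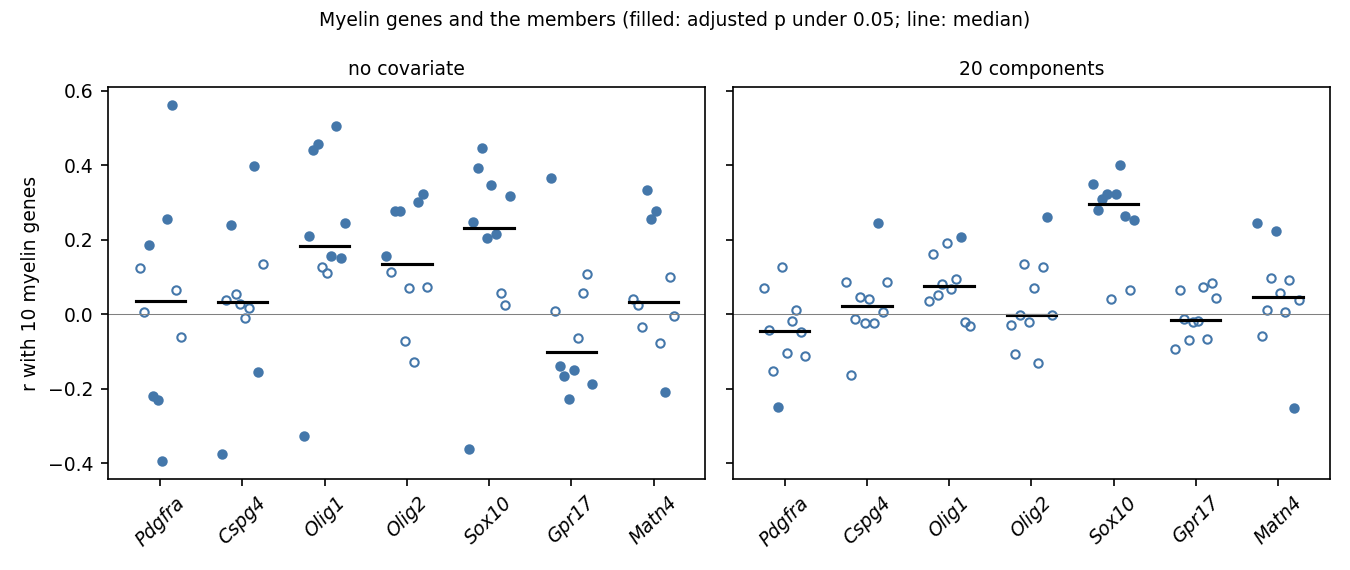
Correlation r over 248 animals (vertical axis) of 10 myelin genes with each of the 7 genes (horizontal axis), with no covariate on the left and 20 components as covariates on the right; filled points passed and lines are medians. On the right the median for Sox10 is 0.295, and 8 of its 10 points are filled.

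By the rule for named genes, the nearest genes over the whole array are given for each member. Olig2 had the closest: Otp at 0.833 and Hes7 at 0.810, developmental transcription factors, and the nitric oxide synthase gene Nos2 at 0.807. With 20 components they were at 0.776, 0.710 and 0.805, and the lower- and higher-numbered animals taken apart gave 0.762 to 0.859. Gdf9 was lowest, at -0.646, and was at -0.0264 with 20 components. No precursor, myelin or vascular gene of the lists was among the 3 nearest genes of Olig2.

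Pdgfra was nearest to Hivep2 (0.759), 5430411K18Rik (0.752) and the myosin gene Myo5a (0.749), and farthest from Map3k3 (-0.741). With 20 components Hivep2 was at -0.0695 and Myo5a at 0.354. Cspg4 was nearest to Ap3d1 (0.769), Brat1 (0.740) and the sterol sensor gene Scap (0.683), and farthest from Senp6 (-0.677), and with 20 components the first 3 were at 0.174, 0.204 and 0.116. So these values were far lower once the components were taken out.

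Olig1 was nearest to Dffa (0.713), Prkar1b (0.676) and the adhesion gene Vcl (0.668), and farthest from Mrpl21 (-0.611). Sox10 was nearest to Tgfb1i1 (0.673), Bcan (0.648) and the talin gene Tln1 (0.646), and farthest from Lamtor3 (-0.574). Bcan is the one gene of the precursor list among all these nearest genes. Matn4 was nearest to Gripap1 (0.594), Aldh2 (0.586) and Sh3d19 (0.574), and farthest from Csrp1 (-0.538). With 20 components all of these lay nearer to 0: those of Olig1 at 0.284, 0.288, 0.346 and 0.00185, those of Sox10 at 0.159, 0.156, 0.289 and -0.166, and those of Matn4 at 0.319, 0.437, 0.333 and -0.227, in the order named.

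The probe named Gpr17 was nearest to Olfr1270 (0.715), Olfr464 (0.712) and CIB4 (0.711), and farthest from Ankrd9 (-0.641). Its 20 nearest genes held 6 olfactory or vomeronasal receptors, which are 2.59% of all genes measured. Of 298 such receptors 143 rose and 63 fell with it (background 33.4% and 32.6% over all genes). These receptors were looked at after the values were seen. With 20 components its values for the first 3 were 0.177, 0.275 and 0.155.

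The genes that told Pdgfra and Cspg4 from the lineage factors most were found by the test of the difference. The correlation with Pdgfra differed from that with the factors for 3313 genes in the higher direction and 4174 in the lower (28.8% and 36.3% of 11501). The extremes were the cell adhesion gene Nrcam at 0.699 against -0.0961, Sos2 at 0.570 against -0.195, Togaram1 at 0.590 against -0.168, Sec11a and Fam91a1, and below Gjb1 the genes Sirt6, Cacng2, Ercc1 and Ccdc106. For Cspg4 the counts were 2209 and 2493 (19.2% and 21.7%). Its extremes were Slc37a2 at 0.353 against -0.198, Bves, Ercc8, Tanc1 at 0.517 against 0.00253 and the BMP receptor gene Bmpr2, and in the other direction Stx5a at -0.146 against 0.484, Coq8b, Npepl1, Ip6k1 and Cdk4.

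Neighbours on the chromosome were checked because the animals come from a cross, in which genes that lie close together are inherited together. Genotypes were not analysed here. Pdgfra (chromosome 5) rose with its neighbour Kit, a related receptor gene, at 0.308, but with 5 components this was -0.0775 and did not pass. Cspg4 (chromosome 9) fell with Snupn at -0.439, and Gpr17 (chromosome 18) with Lims2 at -0.524, and neither passed with 5 or 20 components. Matn4 (chromosome 2) rose with Slpi at 0.285 and at 0.363 with 20 components (adjusted p = 4.47e-06). Olig1 and Olig2, neighbours of each other, passed under each of the 18 settings tried.

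Sox10 went with many genes of its own chromosome, 15. With 20 components 101 of the 422 other chromosome 15 genes passed with Sox10, 57 positive and 44 negative, which is 23.9% against 7.44% of the 9990 genes placed elsewhere. The next highest autosome was chromosome 3, at 15.4%. Of the 20 genes with the largest absolute r, 18 lay on chromosome 15, which holds 3.90% of the placed genes. Without covariates the shares were 62.8% and 55.4%, and with 5 components 34.4% and 23.6%.

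With 20 components the share was highest within 25 places of the gene. Among the 25 nearest measured genes on each side, 40% passed before Sox10 and 44% after it, among the next 25 on each side 28% and 32%, and from 51 to 100 places away 16% and 20%. Beyond that it did not fall further, with 20% and 22% from 101 to 150 places and 24% and 18% from 151 to 200. Without covariates there was no such gradient: the shares over the same 5 ranges lay between 64% and 72% before Sox10 and between 52% and 64% after it. The genes that led were picked with their values in view. Card10, 9 places before, was at -0.666 (adjusted p = 7.73e-27), Commd5, 29 before, at -0.644, Csnk1e, 6 after, at -0.623, and Rbfox2, 25 before, at -0.609. Cerk, 78 places after, was highest at 0.589, followed by Ccn4, 87 before, at 0.550. The next gene after Sox10, Pick1, was at -0.398 (adjusted p = 1.53e-07) and at 0.0974 without covariates. Among the 25 genes before Sox10 5 were positive and 5 negative, and among the 25 after it 4 and 7, so both signs occurred close by. In the lower-numbered animals 38 of the 422 passed (9.00%, against 0.34% of genes elsewhere), and in the higher-numbered ones 56 (13.3%, against 0.901%).

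The other members had nearer shares on and off their own chromosome with 20 components: 15.6% and 12.1% for Matn4, 13.1% and 13.2% for Olig2, 9.97% and 8.13% for Cspg4, 6.71% and 4.23% for Olig1, 5.83% and 6.49% for Pdgfra, and 0% and 3.08% for Gpr17. The difference between Sox10 and these was not tested.

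**Figure D5:**
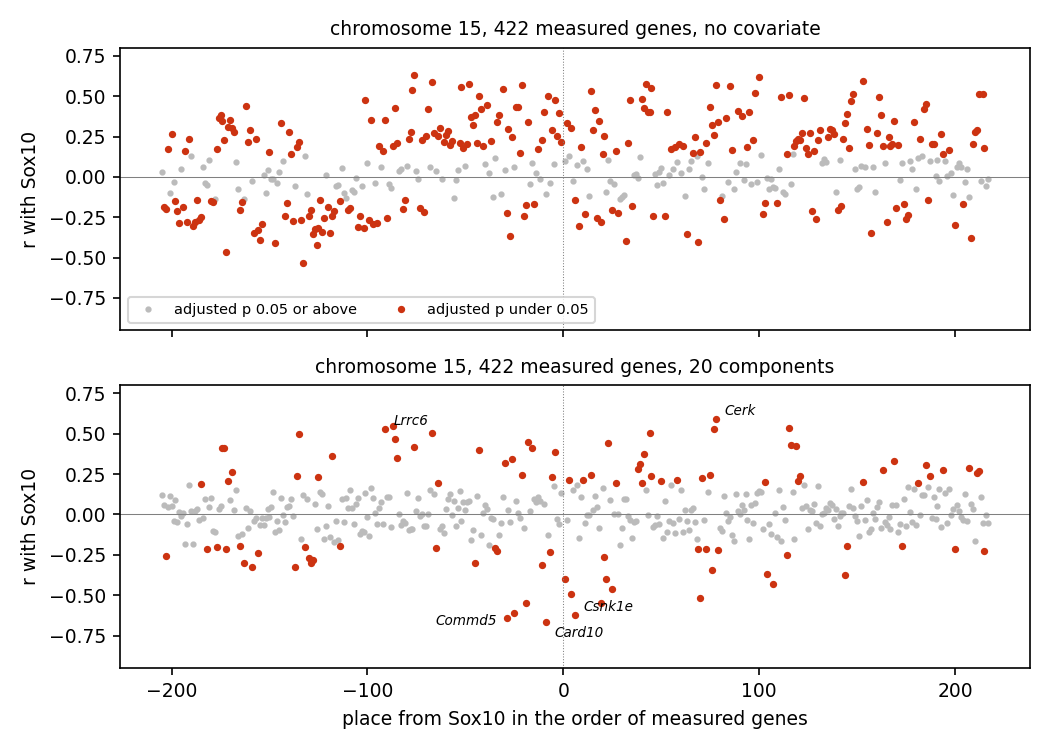
Correlation r with Sox10 over 248 animals (vertical axis) for the 422 other measured genes of chromosome 15, by place from Sox10 in gene order (horizontal axis), with no covariate above and 20 components below; red points passed. Below, the most negative genes, Card10, Commd5 and Csnk1e, lie near place 0, and Cerk at 0.589 lies 78 places after.

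The animal number was the only label that differed between animals, and the labels do not say what it follows. Of the 7 members 1 changed with it, Cspg4, against 16.7% of all genes, so the count is no more than the background. The mean of Cspg4 was 0.0104 ± 0.0498 in the 124 lower-numbered animals and -0.0102 ± 0.0510 in the 124 higher-numbered ones. The correlation with the number was -0.222 (-0.337 to -0.100, adjusted p = 0.00548), a slope of -0.0106 in log10 ratio per 100 numbers. The sets overlap widely, for their means differed by less than 1 SD. Matn4 was next at -0.165 (adjusted p = 0.0524). With 5 components Cspg4 was at 0.0487 (adjusted p = 0.752) and Matn4 passed at -0.221 (adjusted p = 0.0141). With the number as a covariate Pdgfra and Cspg4 still passed as a pair, at 0.470 (adjusted p = 2.68e-13).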

How the data were processed

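RNA from each brain was hybridised in Cy3 against the pool in Cy5 on a 2-colour array, per the labels, and the deposited values are log10 ratios that the authors made; their background correction, normalization and software were not given in the sources used here. Of 23388 probes, 13645 carry 1 gene symbol, 48 several and 9695 none. Probes of a gene were averaged, giving 11508 genes from 13444 probes. Each member, standardised, was a covariate in limma 3.58.1 (R 4.3.3) with all genes as responses and Benjamini-Hochberg adjustment over all other genes; a pair passed when both directions did. The difference of 2 correlations was the contrast of their slopes. The named genes are the 3 nearest and the lowest of each member, the 5 extremes of each contrast in each direction, list genes at the ends of each list or called in it, and the neighbours on the chromosome; other list genes were picked after their values were seen. The members and lists were chosen with earlier results of these data known, and the 20 components were added after seeing the data. Animals are separate, but each has 1 array, so p-values measure the spread between animals and technical error together. Precision is limited by the number of arrays. The fits were tested on simulated data. The title and the source name of 1 sample disagree on the animal number, which was taken from the source name.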

Additional observations from a re-analysis of the deposited data

How the results depend on the processing

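No paired analysis was possible because all animals form 1 group and no replicate numbers are shared between groups. Of the alternative values of the 21 pairs, 313 kept their direction and side of the threshold, 17 lost the call, 10 gained it and 32 changed sign. The cause was not tested for any of the changes below. With 20 components, 3 pairs passed and 2 with the vascular means as well, the differing genes numbered 1638 for Pdgfra against the lineage factors, 1294 for Cspg4 against them and 899 for Cspg4 against Pdgfra, 6 mural genes passed with Cspg4 where 13 had without components, and limma called 0 members with animal number (1 of 7 at an unadjusted p under 0.05). With 5 components, 2357 genes differed for Pdgfra against the lineage factors (7487 without) and 2746 for Cspg4 against Pdgfra (7203 without). On normal scores of ranks, 2827 genes differed for Cspg4 against the lineage factors (4702 on the values), 2 members passed with animal number, and 3 myelin and 1 fibroblast gene passed. Without the 12 arrays of largest SD, 2 members passed with animal number and 2 fibroblast genes with Pdgfra, and without animal 178, 2 members passed with animal number. In the 124 lower-numbered animals, 1971 genes differed for Cspg4 against the lineage factors, 38 chromosome 15 genes, 1 myelin gene and 0 fibroblast genes (limma, 2 unadjusted) passed. In the higher-numbered animals, 4410 genes differed for Cspg4 against Pdgfra, and 56 chromosome 15 genes, 2 myelin genes, 0 mural genes (limma, 9 unadjusted) and 1 fibroblast gene passed.

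The pairs that changed sign involved Gpr17 or Matn4 in all cases but Cspg4 with Olig1 at -0.101 under 20 components and Pdgfra with Sox10 at -0.166 with animal 144 included. With animal 144, Pdgfra with Matn4 was 0.318, Cspg4 with Matn4 0.0704 and Sox10 with Matn4 -0.116. Pdgfra with Matn4 was 0.0201 without the 12 arrays, 0.0947 under 5 and 0.226 under 20 components, 0.0657 in the higher numbers and 0.0150 without animal 178. Cspg4 with Gpr17 was -0.0341 without the 12 arrays, -0.129 in the lower numbers, -0.0731 under 20 components, and -5.42e-05, -2.77e-05 and -0.0348 without animals 178, 186 and 213. Cspg4 with Matn4 was 0.0297 without the 12 arrays, 0.0230 under 5 components and 0.0402 in the lower numbers. Gpr17 with Olig1 was 0.00603 on ranks, 0.0566 without the 12 arrays, 0.244 under 5 and 0.123 under 20 components, 0.0604 in the lower numbers and 0.0446 without animal 213. Gpr17 with Sox10 was 0.142 under 5 and 0.0865 under 20 components, Gpr17 with Olig2 -0.0464 under 20 components, and Gpr17 with Matn4 0.0993 in the higher numbers and 0.00341 without animal 213. Olig1 with Matn4 was 0.0148 and Olig2 with Matn4 -0.0476 under 20 components. Ratios to a pool give no signal over background, so dim probes could not be told from bright ones.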
